A study of Mus musculus with 18 samples.

Results

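Myc and 41 nucleolar genes of ribosome biogenesis were followed through the RNA-seq of mouse B cell differentiation, with and without Dnmt3a and Dnmt3b, the enzymes that set DNA methylation at unmethylated sites. The 42 genes are a hand-made list of Myc and of factors that make rRNA or assemble ribosomal subunits, and they were matched by symbol to 42 of the 21761 genes in the deposited expression table. All 42 passed the filter on low values (FPKM above 1 in at least 2 libraries), as did 11522 genes in all. FPKM values are reads on a gene scaled by the length of its exons and by all reads counted on genes in that library. Most immunoglobulin genes are not in the table used, so their reads are not part of this scaling.

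Each of 6 groups held 3 libraries made from 5000 sorted cells. Naive follicular B cells (nB) were B220+ GL7- Fas- cells of lymph nodes from unimmunized mice, and germinal center cells (GCB) were PE+ B220+ GL7+ Fas+, where PE is phycoerythrin, the protein given as antigen. Bone marrow plasma cells (BMPC) were CD138+. GCB and BMPC were taken 30 days after immunization with PE in complete Freund's adjuvant, and a GCB sample pooled cells of 2 mice. In each nB and GCB group, replicates 1 and 2 were female and replicate 3 was male. In BMPC, Dnmt3-sufficient replicate 2 and Dnmt3-deficient replicate 1 were female and the others male. Sex was thus not balanced between BMPC and the other cell types. All mice carried loxP-flanked Dnmt3a and Dnmt3b (Dnmt3afl/fl Dnmt3bfl/fl) on a mixed B6;129S4 background and were 8 to 12 weeks old. Dnmt3-deficient mice also carried a Cre allele that cut in B lineage cells, and Dnmt3-sufficient mice did not. The Cre allele was therefore present in the Dnmt3-deficient mice only, and its part in any genotype difference cannot be told apart from that of the enzymes.

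Ribosomes are built in the nucleolus. RNA polymerase I copies the rRNA genes, small nucleolar ribonucleoproteins (snoRNPs) guide chemical marks onto the transcript (box C/D snoRNPs add methyl groups, box H/ACA snoRNPs convert uridine to pseudouridine), and many assembly factors fold and cut it into the small and the large subunit. Myc is a transcription factor that pairs with Max, binds the E-box CACGTG and its variants, and is known to raise expression of much of this machinery in growing cells. Germinal center B cells divide quickly. Plasma cells have mostly left the cell cycle and devote their ribosomes to antibody.

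The groups matched their labels by marker genes. Summed FPKM of 8 GCB markers was 1298 to 1498 in GCB and at most 83.5 elsewhere, and that of 8 BMPC markers was 19038 to 51658 in BMPC and at most 1608 elsewhere. The BMPC sum includes the very abundant Jchain, and 7 of its 8 markers rose from nB to BMPC in each genotype. Depth was 6692516 to 8987922 reads on genes in nB, 7644544 to 8903872 in GCB and only 1355231 to 3803197 in BMPC. These depths leave out reads on most immunoglobulin genes, so FPKM is a share of the remaining RNA. The authors reported a much larger share of immunoglobulin mRNA in BMPC than in nB or GCB. Its part in the BMPC depths and changes was not tested. The BMPC libraries also held RNA of other marrow cells: 8 neutrophil markers summed to 9.37 to 582 FPKM in BMPC and to 0 in every nB and GCB library, with 1 to 7 of the 8 at 0 in a BMPC library, and 4 erythroid markers summed to 149 to 2194 FPKM in BMPC and to at most 218 elsewhere, with 0 or 1 of the 4 at 0 in BMPC. The sum of 6 early B cell markers was 379 to 800 FPKM in BMPC, 263 to 378 in GCB and 182 to 275 in nB, with 0 to 3 of the 6 at 0 in BMPC. That of 7 macrophage markers was 63.5 to 227 FPKM in BMPC, at most 19.7 in GCB and 1.70 to 73.9 in nB, with 4 to 6 of the 7 at 0 in BMPC. The sum of 7 T cell markers was 86.8 to 219 FPKM in BMPC, 78.8 to 135 in GCB and 58.8 to 156 in nB. The part of all these cells in the values of the members was not tested. Dnmt3a was at 2.35 to 5.18 FPKM in Dnmt3-sufficient nB and at 2.24 to 4.33 in Dnmt3-deficient nB, and at most 3.08 in any other library. These values count the whole transcript, including exons that were not deleted, and so do not check the deletion.

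All 42 members had reads in every nB and GCB library. In BMPC, 17 members were at 0 in at least 1 library, with 1 to 7 members at 0 per library. The median SD between the 3 libraries of a group, on the log2(FPKM + 1) scale, was 0.31 and 0.28 for nB, 0.22 and 0.24 for GCB, and 0.65 and 1.13 for BMPC (Dnmt3-sufficient and Dnmt3-deficient). Members in BMPC therefore carried a wider error than in the other cells, and the test gave each cell type a spread of its own. Both genotypes of a cell type shared that spread. Over all genes tested the median SD in BMPC was 0.78 and 0.82, and the members had a median of 224 and 61.5 reads there. The error of the members may thus be understated in Dnmt3-deficient BMPC. In these bulk libraries, a lower value may come from fewer cells of a type or from less RNA per cell, which cannot be told apart.

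**Figure D1:**
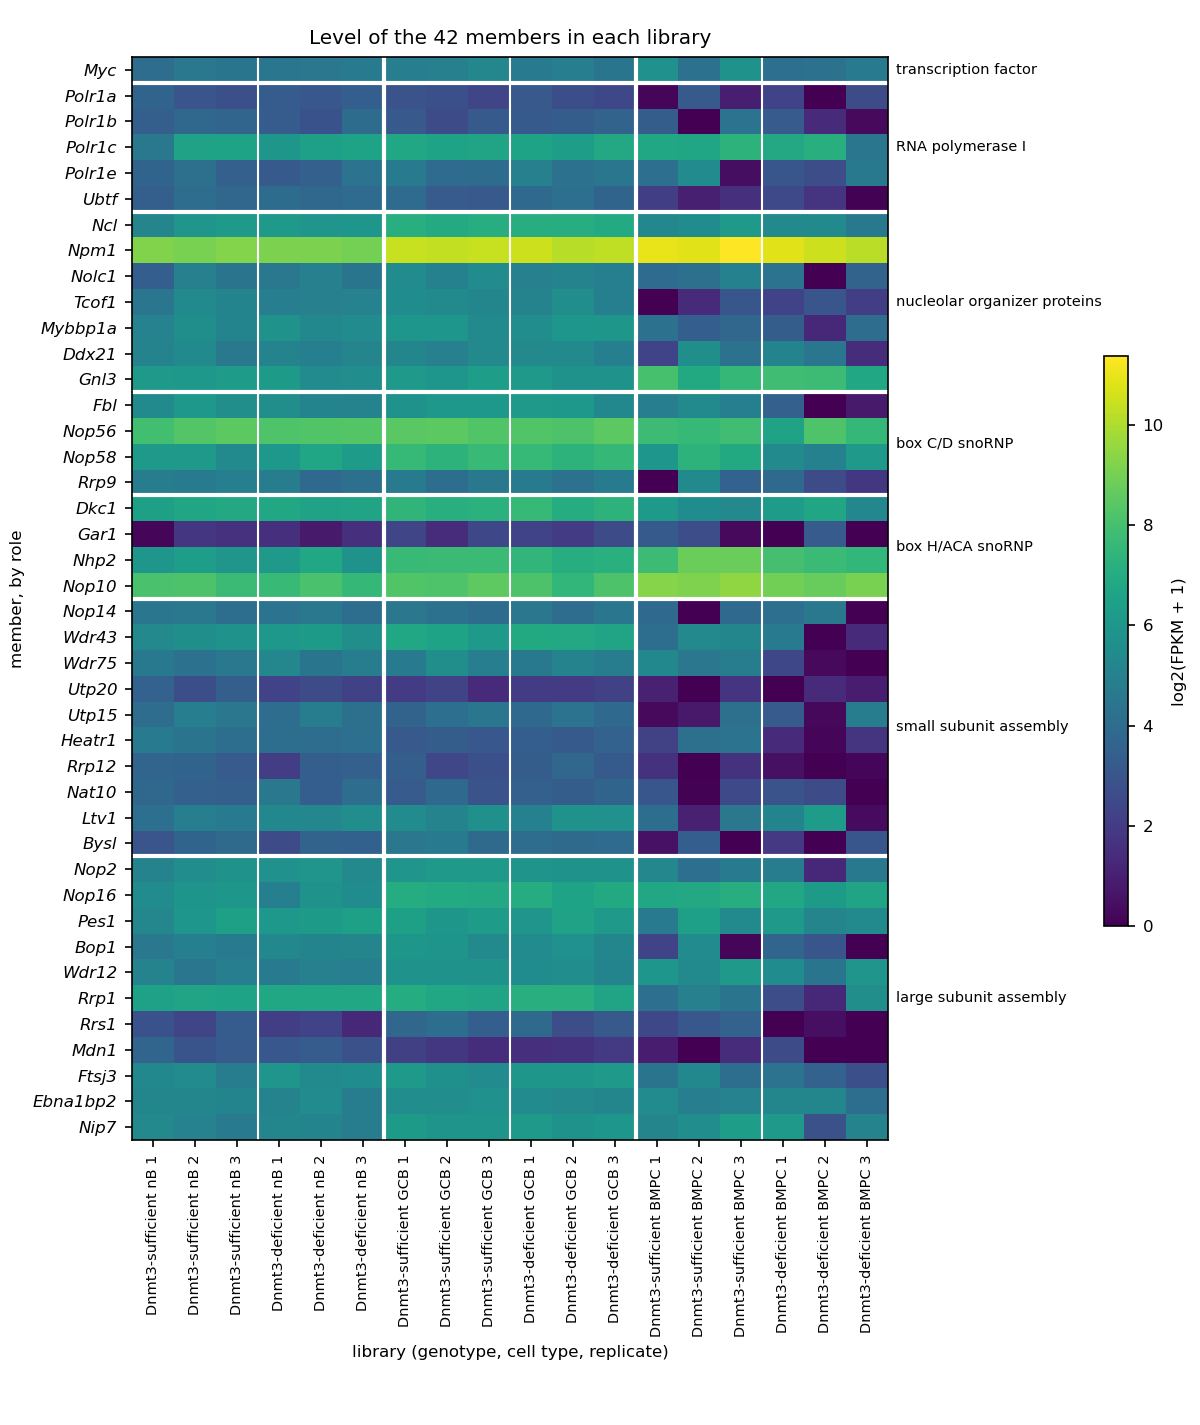
Level of the 42 members (down, by role) in each of the 18 libraries (across), as log2(FPKM + 1). Npm1 was the highest member in every library, and the dark cells at or near 0 lie mainly in the 6 BMPC libraries, where 17 members were at 0 in at least 1 library.

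Sequences around the gene starts are shown because Myc binds E-boxes, and they show which members carry one near their start and which do not. RefSeq promoters of build GRCm38.p6 (250 bases before to 50 after the start) were matched for 35 of the 42 members. Myc, Npm1, Tcof1, Fbl, Rrp12, Bop1 and Rrs1 had no entry. The palindrome CACGTG was found in 7 of the 35 (20%), compared with 12.1% of 8738 tested genes and 8.09% of all 27025 genes with a promoter. Each match is printed below 5′ to 3′ on the strand of its gene, with the E-box in capitals: Mybbp1a at chr11:72441355-72441376 (plus strand), Wdr43 at chr17:71616220-71616249 (plus), Utp20 at chr10:88826765-88826789 (minus), Ltv1 at chr10:13193092-13193121 (minus), Nop2 at chr6:125131811-125131840 (plus), Pes1 at chr11:3963965-3963994 (plus) and Mdn1 at chr4:32657145-32657168 (plus). The E-box of Nop2 begins 60 bases before the gene start, and the other 6 begin 3 to 41 bases after it.
Mybbp1a: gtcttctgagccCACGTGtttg
Wdr43: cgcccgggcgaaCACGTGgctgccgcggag
Utp20: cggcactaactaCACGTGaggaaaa
Ltv1: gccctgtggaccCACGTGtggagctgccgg
Nop2: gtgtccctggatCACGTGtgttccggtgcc
Pes1: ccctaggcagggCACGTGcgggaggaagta
Mdn1: gaattccttcacCACGTGtgtgtc

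The related hexamer CACGCG, searched on both strands (CGCGTG on the other), was in 15 of the 35 members (42.9%), in 19.9% of the tested genes and in 10.5% of all genes with a promoter. The full windows of Nop58 (chr1:59684756-59685055, plus strand) and Nop16 (chr13:54590025-54590324, minus strand) are shown because both genes are among the members with the clearest rise in GCB described below, and neither window holds CACGTG. Nop16 holds CACGCG, in capitals, and Nop58 holds neither hexamer. A match or its absence describes these letters in this window and is no measurement of binding.
Nop58: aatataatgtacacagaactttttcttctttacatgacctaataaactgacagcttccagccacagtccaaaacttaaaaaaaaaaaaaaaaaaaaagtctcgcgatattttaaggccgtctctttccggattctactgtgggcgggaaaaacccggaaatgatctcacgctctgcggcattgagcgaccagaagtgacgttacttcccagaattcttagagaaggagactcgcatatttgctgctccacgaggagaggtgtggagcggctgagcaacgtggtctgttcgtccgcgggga
Nop16: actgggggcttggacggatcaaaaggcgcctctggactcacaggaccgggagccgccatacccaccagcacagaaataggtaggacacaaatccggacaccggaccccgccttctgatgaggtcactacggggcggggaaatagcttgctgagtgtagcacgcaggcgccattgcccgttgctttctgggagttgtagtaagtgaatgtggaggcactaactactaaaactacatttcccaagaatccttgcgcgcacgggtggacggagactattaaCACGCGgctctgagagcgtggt

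Myc itself (chromosome 15, 61816946 to 61821929 in mm9) was expressed in all 18 libraries, at 15.6 to 55.7 FPKM. Dnmt3-sufficient nB gave 15.6, 22.3 and 20.2 FPKM, GCB gave 28.1, 30.0 and 37.8, and BMPC gave 52.8, 18.1 and 55.7. Dnmt3-deficient nB gave 21.1, 22.0 and 24.9 FPKM, GCB gave 24.2, 27.6 and 20.2, and BMPC gave 16.8, 18.1 and 23.8. Every Dnmt3-sufficient GCB library lay above every nB library of that genotype, whereas the Dnmt3-deficient GCB and nB libraries overlapped.

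The difference GCB minus nB was 0.70 ± 0.24 (SE) on the log2(FPKM + 1) scale in Dnmt3-sufficient cells (limma, adjusted p = 0.0282), which is under the change of 1 that the threshold asks for, and 0.07 ± 0.24 in Dnmt3-deficient cells (adjusted p = 0.863). The difference of these differences was not past the threshold, since the interaction called none of the 42 members. In BMPC the Dnmt3-sufficient mean was drawn up by 2 of 3 libraries, and the difference from nB (0.94 ± 0.46, adjusted p = 0.14) was within the spread. An exact two-sided permutation test of 3 against 3 libraries gave 0.1 for GCB minus nB in Dnmt3-sufficient cells, the smallest p that this design allows.

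From nB to GCB, 7 members rose and 3 fell in Dnmt3-sufficient cells, and 6 rose and 1 fell in Dnmt3-deficient cells, at an adjusted p of at most 0.05 and a change of at least 1. Among all 11522 genes tested, 12.1% rose and 16.6% fell in Dnmt3-sufficient cells (28.7% in either direction), and 10.7% rose and 14.7% fell in Dnmt3-deficient cells (25.4%). The members called were thus 16.7% higher and 7.14% lower in Dnmt3-sufficient cells, and 14.3% and 2.38% in Dnmt3-deficient cells, so the share of members that rose was near that of all genes. The median change of the 42 was 0.50 and 0.25 (Dnmt3-sufficient and Dnmt3-deficient), beside -0.11 and -0.13 over all genes. It was 0.27 and 0.31 for 18 housekeeping genes, so a median above that of all genes was not particular to the members. Whether the members differ from the housekeeping genes was not tested. Without the size threshold, 19 of 42 members (45.2%) had all Dnmt3-sufficient GCB libraries above all nB libraries, beside 20.6% of all genes, and 4 (9.52%) had them all below, beside 25%. In Dnmt3-deficient cells 13 of 42 (31%) lay above and 2 (4.76%) below, beside 19.7% and 25.7%. Of the 18 housekeeping genes, 9 lay above and 3 below in Dnmt3-sufficient cells, and 9 above and 2 below in Dnmt3-deficient cells. Estimates were above 0 for 30 and 33 of the 42 members, most of them small.

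The members that rose in both genotypes were Npm1, Ncl, Nop58, Nhp2 and Nop16. They are 5 of the 7 called in Dnmt3-sufficient cells (71.4%) and 5 of the 6 in Dnmt3-deficient cells (83.3%), beside 69.6% and 79.2% of all genes called higher.

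Npm1 (nucleophosmin, a chaperone that helps form the nucleolus and carries ribosomal proteins; chromosome 11, 33052287 to 33063206 in mm9) was the most abundant member. Dnmt3-sufficient nB gave 586, 537 and 604 FPKM and GCB 1364, 1261 and 1375. Dnmt3-deficient nB gave 557, 561 and 504 FPKM and GCB 1443, 1130 and 1255. The groups lay far apart in both genotypes, with changes of 1.21 ± 0.10 and 1.23 ± 0.10 on the log2(FPKM + 1) scale (limma, adjusted p = 2.21e-08 and 1.99e-08). Npm1 has processed pseudogenes of near-identical sequence, so part of its reads may have been lost or misplaced by mapping.

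Ncl (nucleolin, which binds nascent rRNA and its chromatin) rose from 34.7, 60.2 and 66.9 FPKM in Dnmt3-sufficient nB to 142, 121 and 133 in GCB, an increase of 1.33 ± 0.20 (adjusted p = 4.05e-05). The Dnmt3-deficient libraries went from 69.4, 59.5 and 62.3 FPKM to 135, 133 and 123, an increase of 1.02 ± 0.20 (adjusted p = 0.000637). No GCB library overlapped an nB library in either genotype. Nolc1, a chaperone of snoRNPs, rose in Dnmt3-sufficient cells (1.08 ± 0.39, adjusted p = 0.0367), beside a difference of 0.34 ± 0.39 in Dnmt3-deficient cells (adjusted p = 0.54). That difference between genotypes was not past the threshold of the interaction test. The call of Nolc1 was lost under 9 of 18 alternatives (adjusted p up to 0.423), among them a pseudocount of 0.1, no filter, 1 spread for all libraries, and leaving out Dnmt3-sufficient nB replicate 1 or 3 or GCB replicate 1 or 3. The other nucleolar organizer proteins, Tcof1, Mybbp1a, Ddx21 and Gnl3, had changes between -0.01 and 0.52 in both genotypes, none past the threshold.

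Of the 4 box C/D snoRNP proteins, Nop58 (a core protein of the particle) rose and the other 3 did not pass the test. It went from 68.4, 67.9 and 43.0 FPKM in Dnmt3-sufficient nB to 192, 162 and 198 in GCB (1.63 ± 0.21, adjusted p = 5.98e-06). With Dnmt3 lost, it went from 65.7, 104 and 77.8 FPKM to 192, 164 and 188 (1.15 ± 0.21, adjusted p = 0.000286). The GCB values were close together and well above each nB value. Its partner in the particle, Nop56, overlapped between nB (240, 316 and 363 FPKM) and GCB (345, 365 and 312), with a difference of 0.17 ± 0.16 in Dnmt3-sufficient cells (adjusted p = 0.45), as it did in Dnmt3-deficient cells (296, 309 and 321 FPKM against 305, 292 and 361). Fbl, the methyltransferase of the particle, had differences of 0.28 ± 0.32 and 0.56 ± 0.32, and Rrp9, which belongs to the U3 particle, of -0.35 ± 0.41 and 0.26 ± 0.41. Rrp9 gave 27.1, 24.0 and 29.0 FPKM in Dnmt3-sufficient nB and 24.0, 16.4 and 22.5 in GCB, and 26.1, 13.8 and 17.2 and then 25.3, 18.2 and 24.0 FPKM in Dnmt3-deficient cells. These overlap.

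Of the 4 box H/ACA proteins, Nhp2 rose past the threshold. This core protein gave 62.4, 78.6 and 59.4 FPKM in Dnmt3-sufficient nB and 210, 211 and 214 in GCB (1.66 ± 0.20, adjusted p = 2.35e-06), the largest rise of any member in that comparison. The Dnmt3-deficient values were 68.4, 113 and 55.6 FPKM in nB and 178, 136 and 147 in GCB (1.01 ± 0.20, adjusted p = 0.000559), again with no overlap. Dkc1, the pseudouridine synthase of the particle, was higher by 0.60 ± 0.19 and 0.66 ± 0.19 (adjusted p = 0.0205 and 0.0126), below the size threshold. Its nB libraries gave 86.5 to 114 FPKM and its GCB libraries 130 to 192, so that the groups did not overlap. Nop10 had differences of 0.35 ± 0.18 and 0.19 ± 0.18. Gar1 was low throughout, at most 8.71 FPKM in any library.

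In the large subunit group, Nop16 and Wdr12 rose in Dnmt3-sufficient cells, Nop16 and Rrs1 rose in Dnmt3-deficient cells, and Mdn1 fell in both. Nop16, a nucleolar protein of pre-60S particles, gave 43.3, 57.4 and 64.2 FPKM in Dnmt3-sufficient nB and 132, 121 and 116 in GCB (1.17 ± 0.20, adjusted p = 0.000169). It gave 28.9, 53.7 and 45.6 FPKM in Dnmt3-deficient nB and 131, 96.4 and 117 in GCB (1.44 ± 0.20, adjusted p = 1.89e-05). Again no GCB library overlapped an nB library.

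Wdr12, a partner of Pes1 and Bop1 in the PeBoW complex, rose by 1.02 ± 0.22 in Dnmt3-sufficient cells (adjusted p = 0.00113) and was higher by 0.60 ± 0.22 in Dnmt3-deficient cells (adjusted p = 0.0413), under the size threshold. Its partners had differences of 0.34 ± 0.27 (Pes1) and 1.05 ± 0.43 (Bop1, adjusted p = 0.0614) in Dnmt3-sufficient cells. Rrs1, which brings the 5S particle into the large subunit, rose by 1.37 ± 0.38 in Dnmt3-deficient cells (adjusted p = 0.00953). Mdn1 (a very large ATPase that strips factors off the pre-60S particle) went from 12.2, 6.63 and 8.62 FPKM in Dnmt3-sufficient nB to 3.47, 2.54 and 1.82 in GCB (-1.48 ± 0.35, adjusted p = 0.00276). In Dnmt3-deficient cells the values went from 7.38, 8.85 and 6.07 FPKM to 1.91, 2.18 and 2.77 (-1.35 ± 0.35, adjusted p = 0.00574). Every GCB library lay below every nB library.

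None of the 10 small subunit factors rose past the threshold in GCB. Utp20 and Heatr1, large scaffold proteins of the first small subunit precursor, fell in Dnmt3-sufficient GCB. Utp20 went from 10.8, 5.54 and 9.94 FPKM in nB to 2.96, 3.96 and 1.61 in GCB (-1.35 ± 0.34, adjusted p = 0.00458). In Dnmt3-deficient cells it gave 3.93, 5.05 and 3.70 FPKM in nB and 2.97, 3.05 and 3.71 in GCB (-0.30 ± 0.34, adjusted p = 0.552), with nB below all Dnmt3-sufficient nB libraries. Heatr1 went from 23.8, 19.6 and 16.0 FPKM in Dnmt3-sufficient nB to 8.04, 9.17 and 7.50 in GCB (-1.16 ± 0.29, adjusted p = 0.00444), with a difference of -0.71 ± 0.29 in Dnmt3-deficient cells (adjusted p = 0.0715). Wdr43, a small subunit scaffold protein and the most abundant of the 10, gave 39.4, 49.8 and 53.8 FPKM in Dnmt3-sufficient nB and 111, 96.7 and 70.4 in GCB, and 65.3, 72.6 and 48.1 and then 117, 115 and 97.4 in Dnmt3-deficient cells. GCB lay above nB in both genotypes, by 0.93 ± 0.34 and 0.83 ± 0.34 (adjusted p = 0.0416 and 0.0735), under the size threshold.

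None of the 5 genes of RNA polymerase I and its factors passed the threshold in GCB in either genotype, with changes from -0.64 to 0.87. Polr1c, a subunit shared with RNA polymerase III, gave 22.7, 91.7 and 94.1 FPKM in Dnmt3-sufficient nB and 109, 96.7 and 96.9 in GCB, where a single low nB library made most of the difference of 0.78 ± 0.36 (adjusted p = 0.102). Its Dnmt3-deficient libraries, at 64.0, 84.5 and 94.7 FPKM in nB and 94.4, 80.4 and 115 in GCB, overlapped. Ubtf, the factor that opens rRNA genes for the polymerase, gave 9.84, 15.6 and 12.4 FPKM in Dnmt3-sufficient nB and 14.9, 8.73 and 7.95 in GCB, and 15.1, 13.1 and 14.7 and then 13.8, 16.8 and 11.5 in Dnmt3-deficient cells. These overlap in both genotypes.

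**Figure D2:**
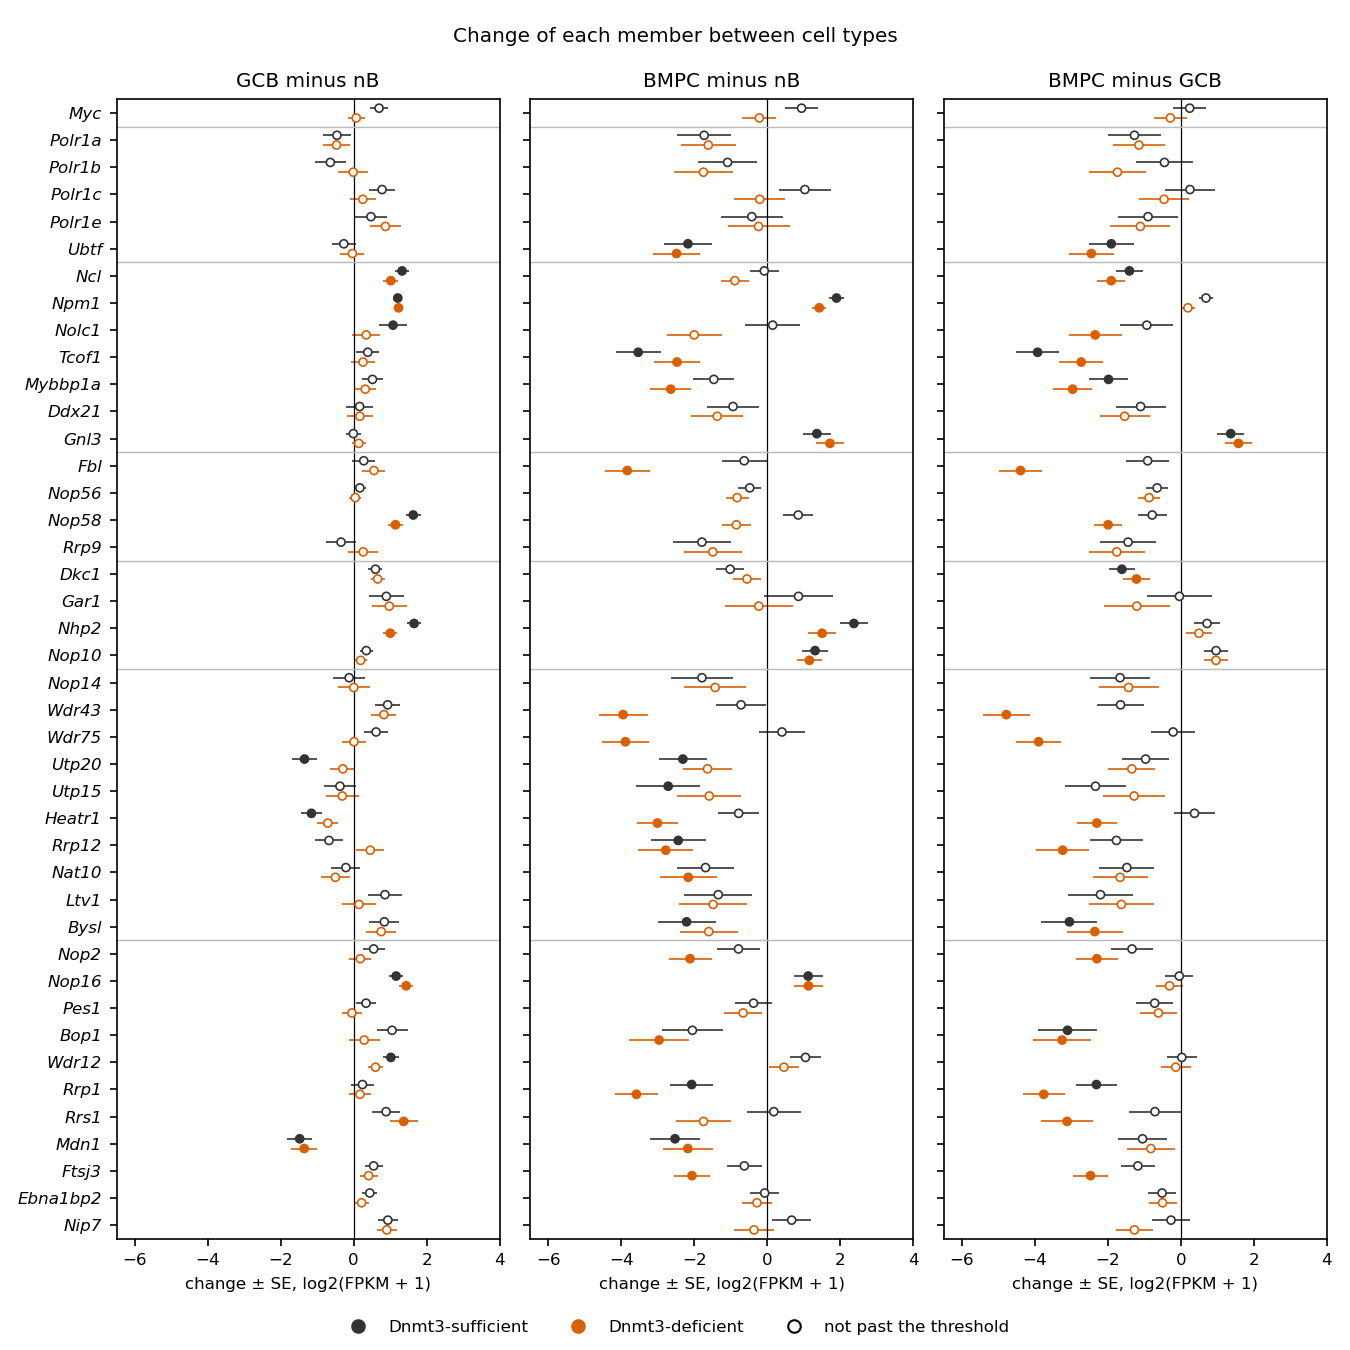
Change of each member between cell types on the log2(FPKM + 1) scale, with its SE, in Dnmt3-sufficient (black) and Dnmt3-deficient (orange) cells, where filled points passed the threshold and grey lines part the roles. Changes were small and mostly above 0 from nB to GCB (medians 0.50 and 0.25), and mostly below 0 from GCB to BMPC (medians -0.95 and -1.58), with Gnl3 the one filled point above 0 there.

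Genes outside the list, taken from lists written with earlier results of these data known, gave the setting. Among 108 other ribosome biogenesis genes, 11 rose and none fell from nB to GCB in Dnmt3-sufficient cells (limma, 28 at an unadjusted p under 0.05 in either direction), and 9 rose and 1 fell in Dnmt3-deficient cells. The shares that rose, 10.2% and 8.33%, were below the 12.1% and 10.7% of all genes, and the shares that fell, 0% and 0.926%, were below 16.6% and 14.7%. Their median change was 0.27 and 0.23, beside -0.11 and -0.13 over all genes and 0.27 and 0.31 for the 18 housekeeping genes. Ruvbl2 and Ruvbl1, paired ATPases that help assemble box C/D snoRNPs, rose most, by 2.15 ± 0.27 and 1.85 ± 0.16 in Dnmt3-sufficient cells and by 1.58 ± 0.27 and 1.46 ± 0.16 in Dnmt3-deficient cells. Of 20 known Myc targets that act outside the nucleolus, 12 rose and 1 fell in Dnmt3-sufficient cells (median 1.11), and 8 rose and 1 fell in Dnmt3-deficient cells (median 0.91), so that 60% and 40% rose and 5% fell in either. Odc1, the first enzyme of polyamine synthesis, rose by 2.41 ± 0.33 and 1.62 ± 0.33 (adjusted p = 1.47e-05 and 0.000902), and Ldha, which makes lactate, by 1.90 ± 0.14 and 1.69 ± 0.14 (adjusted p = 5.16e-09 and 2.4e-08). All 15 cell cycle genes rose in both genotypes, with a median of 4.64 and 4.71. From nB to BMPC 8 and 6 of these 15 rose and none fell (medians 1.72 and 1.28). From GCB to BMPC 10 and 13 of them fell and none rose.

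From nB to BMPC the members split. In Dnmt3-sufficient cells 5 rose and 8 fell, and in Dnmt3-deficient cells 5 rose and 14 fell. Of all genes tested, 7.94% rose and 19.2% fell in Dnmt3-sufficient cells (27.1% in either direction) and 5.21% rose and 21.6% fell in Dnmt3-deficient cells (26.8%). For the members these shares were 11.9% and 19% in Dnmt3-sufficient cells, close to all genes in the falls, and 11.9% and 33.3% in Dnmt3-deficient cells. The median member change was -0.67, beside -0.70 for all genes, in Dnmt3-sufficient cells, and -1.54, beside -0.84, in Dnmt3-deficient cells. It was 0.68 and 0.47 for the 18 housekeeping genes and 1.01 and 0.38 for the 20 Myc targets outside the nucleolus. For the 108 other ribosome biogenesis genes it was -0.57 and -1.20. Whether the members differ from these lists was not tested. The comparisons with nB and with GCB share the BMPC libraries, and those from nB share the nB libraries, so they are not separate evidence. In Dnmt3-sufficient cells 7 members had all BMPC libraries above nB and 13 below, beside 12.5% and 32.3% of all genes, and in Dnmt3-deficient cells 5 and 20, beside 9.49% and 36.2%.

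The same 5 members rose from nB to BMPC in both genotypes: Npm1, Gnl3, Nhp2, Nop10 and Nop16. Npm1 gave 2034, 1861 and 2628 FPKM in Dnmt3-sufficient BMPC and 1855, 1431 and 1158 in Dnmt3-deficient BMPC, above every nB library, with changes of 1.90 ± 0.19 and 1.43 ± 0.19 from nB (adjusted p = 1.35e-06 and 3.83e-05). Nhp2 gave 220, 449 and 430 FPKM in Dnmt3-sufficient BMPC and 256, 216 and 182 in Dnmt3-deficient BMPC (2.38 ± 0.38 and 1.51 ± 0.38, adjusted p = 0.000187 and 0.0074). Nop10, the smallest box H/ACA protein, gave 273, 288 and 211 FPKM in Dnmt3-sufficient nB and 622, 574 and 718 in BMPC (1.31 ± 0.35, adjusted p = 0.0101), and 200.8, 271 and 187 and then 495, 423 and 542 in Dnmt3-deficient cells (1.16 ± 0.35, adjusted p = 0.0211). BMPC stood above nB in all libraries of these 3 genes. Nop16 gave 110, 114 and 135 FPKM in Dnmt3-sufficient BMPC and 111, 71.1 and 98.2 in Dnmt3-deficient BMPC (1.12 ± 0.39 and 1.13 ± 0.39, adjusted p = 0.041 and 0.0396), also above nB of the same genotype throughout. The call of Nop16 was lost under 7 of 18 alternatives in Dnmt3-sufficient cells (adjusted p up to 0.155) and 8 of 18 in Dnmt3-deficient cells (up to 0.164), among them leaving out nB replicate 1 or any 1 BMPC library of that genotype and, in Dnmt3-sufficient cells, sex as a covariate. That of Nop10 was lost under 3 of 18 in Dnmt3-sufficient cells (up to 0.066, among them leaving out BMPC replicate 1 or 3) and 6 of 18 in Dnmt3-deficient cells (up to 0.0986, among them leaving out any 1 BMPC library). The members that fell from nB in both genotypes were Ubtf, Tcof1, Rrp12, Rrp1 and Mdn1. Mdn1 was lowest in BMPC, at 0.883, 0 and 1.68 FPKM and at 5.20, 0 and 0.0204 (-2.53 ± 0.68 and -2.18 ± 0.68 from nB, adjusted p = 0.0105 and 0.0245), with no overlap with nB. Utp20, at 1.08, 0 and 2.31 FPKM and at 0, 1.59 and 0.800 in BMPC, fell from nB in Dnmt3-sufficient cells (-2.31 ± 0.67, adjusted p = 0.0151) and had a difference of -1.64 ± 0.67 in Dnmt3-deficient cells (adjusted p = 0.0752).

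Gnl3 (nucleostemin, a GTPase of the nucleolus) was the one member that rose from GCB to BMPC, and it rose in both genotypes. It went from 69.8, 61.3 and 78.6 FPKM in Dnmt3-sufficient GCB to 261, 120 and 190 in BMPC (1.37 ± 0.37, adjusted p = 0.0125). The Dnmt3-deficient libraries went from 67.2, 54.0 and 55.5 FPKM to 236, 219 and 108 (1.58 ± 0.37, adjusted p = 0.00416). The nB libraries gave 44.1 to 73.3 FPKM, so that nB and GCB overlapped in range and BMPC stood above both.

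**Figure D3:**
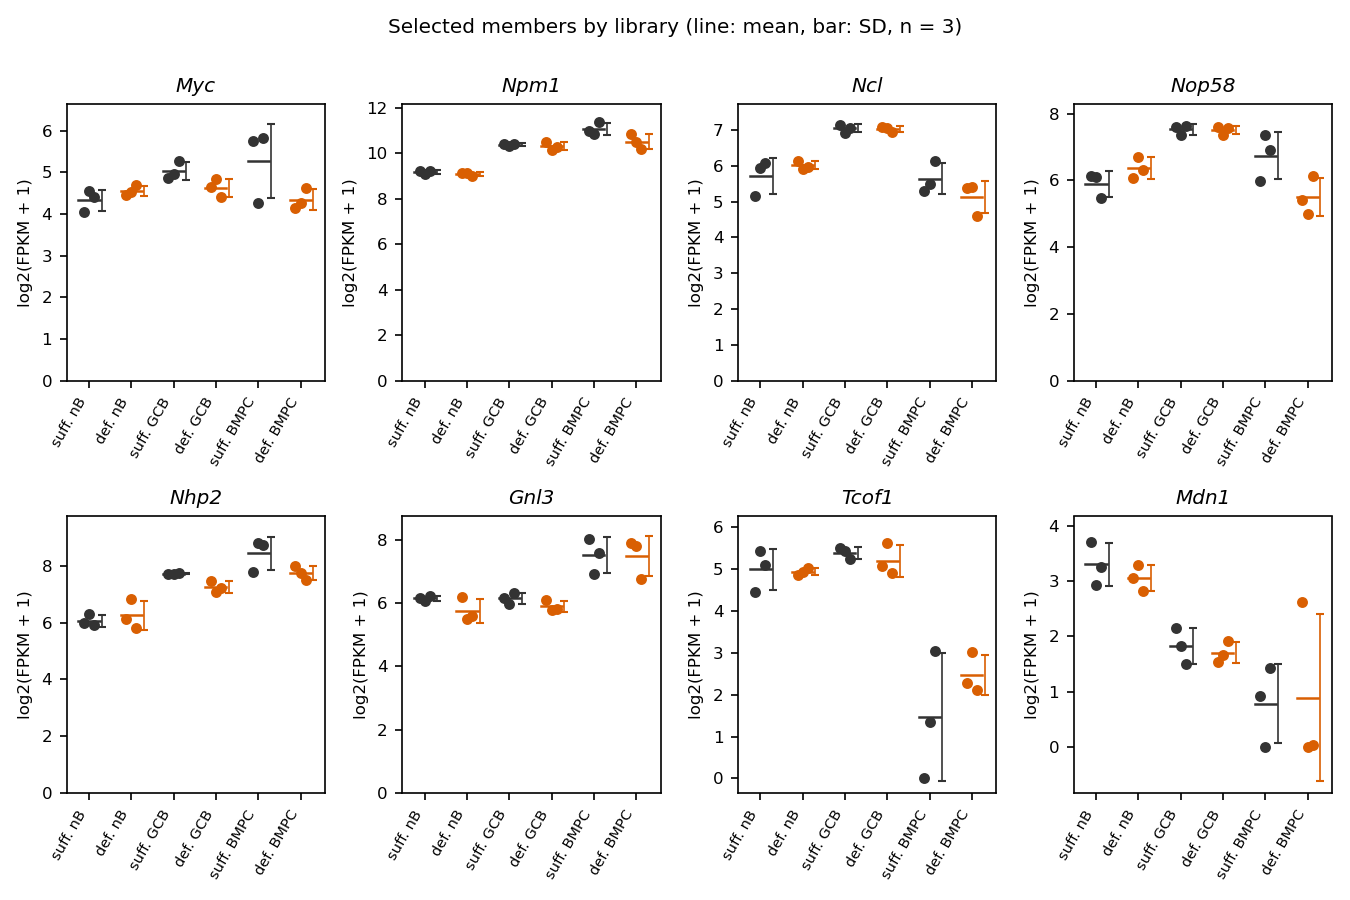
Level of 8 members in each library as log2(FPKM + 1), with points for libraries, lines for the mean and bars for the SD (n = 3), in Dnmt3-sufficient (suff., black) and Dnmt3-deficient (def., orange) cells. Npm1 and Nhp2 lie above nB in GCB and in BMPC, Ncl and Nop58 are highest in GCB, Gnl3 stands above the other cells in BMPC, Tcof1 is lowest in BMPC, and 2 of 3 Dnmt3-sufficient BMPC libraries were high for Myc.

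From GCB to BMPC, 8 members fell and 1 rose in Dnmt3-sufficient cells, and 18 fell and 1 rose in Dnmt3-deficient cells. Among all genes 15.8% fell and 5.22% rose in Dnmt3-sufficient cells (21% in either direction), and 19.9% fell and 4.99% rose in Dnmt3-deficient cells (24.9%). The members that fell were 19% in Dnmt3-sufficient cells, near the share of all genes, and 42.9% in Dnmt3-deficient cells. The median change was -0.95 and -1.58, beside -0.56 and -0.73 over all genes. The 8 that fell in Dnmt3-sufficient cells also fell in Dnmt3-deficient cells (100% and 44.4% of the 2 lists, beside 68.7% and 54.5% for all genes), and they were Ubtf, Ncl, Tcof1, Mybbp1a, Dkc1, Bysl, Bop1 and Rrp1. In Dnmt3-sufficient cells 4 members had all BMPC libraries above GCB and 18 below, beside 11.1% and 32.2% of all genes, and in Dnmt3-deficient cells 3 and 21, beside 8.91% and 35.7%. After median of ratios scaling, 7 fell and 2 rose in Dnmt3-sufficient cells.

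Of RNA polymerase I and its factors, Ubtf alone passed a threshold. Its BMPC values of 3.35, 1.00 and 2.03 FPKM in Dnmt3-sufficient cells and 4.76, 2.29 and 0.0624 in Dnmt3-deficient cells lay below every GCB and every nB library. It fell by -1.91 ± 0.62 and -2.45 ± 0.62 from GCB (adjusted p = 0.0345 and 0.00695). In Dnmt3-sufficient cells this call was lost under 8 of 18 alternatives (adjusted p up to 0.176), among them median of ratios scaling and leaving out GCB replicate 1 or any 1 BMPC library. Polr1c gave 107, 101 and 162 FPKM in Dnmt3-sufficient BMPC and 114, 136 and 21.0 in Dnmt3-deficient BMPC, which overlap GCB.

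Among the organizers of the nucleolus, Ncl lay well below GCB in BMPC. It gave 38.2, 44.5 and 69.5 FPKM in Dnmt3-sufficient BMPC, which overlaps nB, and 40.5, 41.3 and 23.3 in Dnmt3-deficient BMPC, below nB. It fell by -1.41 ± 0.38 and -1.91 ± 0.38 from GCB (adjusted p = 0.0119 and 0.00117), with differences from nB of -0.08 ± 0.39 and -0.89 ± 0.39 that did not pass (adjusted p = 0.922 and 0.101). Tcof1 (treacle, which links Ubtf and RNA polymerase I) went from 44.4, 42.2 and 36.6 FPKM in Dnmt3-sufficient GCB to 0, 1.53 and 7.31 in BMPC (-3.93 ± 0.60, adjusted p = 0.000131), and from 32.9, 48.3 and 28.8 to 3.83, 7.16 and 3.33 in Dnmt3-deficient cells (-2.73 ± 0.60, adjusted p = 0.00246). All 6 BMPC libraries were far below GCB and below nB, which held 21.1 to 42.3 FPKM. Mybbp1a, a Myb-binding nucleolar protein, fell by -1.98 ± 0.54 and -2.96 ± 0.54 (adjusted p = 0.0129 and 0.000575).

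Of the box H/ACA proteins Dkc1 fell in both genotypes. It went from 172, 141 and 151 FPKM in Dnmt3-sufficient GCB to 68.1, 45.1 and 39.8 in BMPC (-1.61 ± 0.36, adjusted p = 0.00354), and from 192, 130 and 161 to 77.6, 103 and 39.0 in Dnmt3-deficient cells (-1.21 ± 0.36, adjusted p = 0.0186). The second call was lost under 6 of 18 alternatives (adjusted p up to 0.197), among them leaving out Dnmt3-deficient BMPC replicate 1 or 3. Its partners Nhp2 and Nop10 did not pass, with differences of 0.72 ± 0.37 and 0.97 ± 0.34 in Dnmt3-sufficient cells (adjusted p = 0.18 and 0.049) and of 0.50 ± 0.37 and 0.97 ± 0.34 in Dnmt3-deficient cells (adjusted p = 0.351 and 0.0439). Nop10 gave 305, 304 and 368 FPKM in Dnmt3-sufficient GCB and 286, 183 and 289 in Dnmt3-deficient GCB, below all BMPC libraries, and was just under the size threshold. The 4 box C/D proteins had negative estimates in both genotypes, and none passed in Dnmt3-sufficient cells by limma (1 at an unadjusted p under 0.05). Nop58 fell past the threshold in Dnmt3-deficient cells (41.5, 31.0 and 69.0 FPKM in BMPC, -1.99 ± 0.39, adjusted p = 0.00109), whereas the Dnmt3-sufficient libraries were at 62.0, 163 and 119 FPKM (-0.78 ± 0.39, adjusted p = 0.17). The interaction of Nop58 between GCB and BMPC had an adjusted p of 0.726. Nop56 gave 223, 193 and 235 FPKM in Dnmt3-sufficient BMPC (-0.65 ± 0.30, adjusted p = 0.141) and 92.8, 299 and 188 in Dnmt3-deficient BMPC (-0.87 ± 0.30, adjusted p = 0.0423), under the size threshold. Rrp9 scattered in BMPC, with 0, 42.3 and 10.8 FPKM in Dnmt3-sufficient cells and 13.5, 5.28 and 2.58 in Dnmt3-deficient cells, and did not pass. Fbl passed in Dnmt3-deficient cells (-4.39 ± 0.59, adjusted p = 3.52e-05) and had a difference of -0.91 ± 0.59 in Dnmt3-sufficient cells (adjusted p = 0.307).

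Among the subunit assembly factors, some that fell had a BMPC library at or near 0. Bysl, which binds the small subunit precursor, went from 21.6, 24.8 and 14.3 FPKM in Dnmt3-sufficient GCB to 0.473, 9.62 and 0 in BMPC (-3.05 ± 0.77, adjusted p = 0.00788). In Dnmt3-deficient cells it went from 15.9, 14.3 and 14.8 to 2.70, 0 and 7.21 (-2.36 ± 0.77, adjusted p = 0.0301), a call lost under 6 of 18 alternatives (adjusted p up to 0.251), among them leaving out BMPC replicate 1 or 2. All BMPC libraries were below GCB, while nB, at 5.16 to 14.3 FPKM, overlapped BMPC. Bop1, of the PeBoW complex, went from 62.7, 57.6 and 42.2 FPKM in Dnmt3-sufficient GCB to 4.05, 44.2 and 0.111 in BMPC (-3.11 ± 0.80, adjusted p = 0.00925), where 1 BMPC library overlapped GCB. In Dnmt3-deficient cells it went from 44.1, 53.0 and 36.4 to 11.9, 7.15 and 0 with no overlap (-3.25 ± 0.80, adjusted p = 0.00574), and nB held 22.3 to 38.0 FPKM. Rrp1, a factor of large subunit maturation, went from 131, 108 and 97.3 FPKM in Dnmt3-sufficient GCB to 17.0, 30.1 and 19.6 in BMPC, with no overlap (-2.31 ± 0.57, adjusted p = 0.007), and fell by -3.76 ± 0.57 in Dnmt3-deficient cells (adjusted p = 0.000114). Of the same role, Nop16 and Wdr12 had differences of -0.04 ± 0.38 and 0.03 ± 0.41 in Dnmt3-sufficient cells (adjusted p = 0.975 and 0.99). In Dnmt3-deficient cells Wdr43 (-4.78 ± 0.65, adjusted p = 3.55e-05), Wdr75 (-3.90 ± 0.61, adjusted p = 0.000152) and Heatr1 (-2.30 ± 0.55, adjusted p = 0.00459) fell as well, beside differences of -1.65 ± 0.65, -0.21 ± 0.61 and 0.38 ± 0.55 in Dnmt3-sufficient cells (adjusted p = 0.0764, 0.859 and 0.688).

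For 2 members, every Dnmt3-deficient BMPC library was at or under 3 reads, so that only a bound can be given. Rrp12, a factor of subunit export, had 3, 0 and 1 reads and was at least 24.4-fold lower than in GCB of that genotype. Rrs1 had 0, 1 and 0 reads and was at least 10.6-fold lower. These bounds set each library at 3 reads and cover counting error only.

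Among the 108 other ribosome biogenesis genes, none rose and 27 fell from GCB to BMPC in Dnmt3-sufficient cells (median -1.03, 41 at an unadjusted p under 0.05 by limma), and none rose and 44 fell in Dnmt3-deficient cells (median -1.32, 57 unadjusted). The shares that fell were 25% and 40.7%, beside 15.8% and 19.9% of all genes. Rrp7a, of the small subunit precursor, and Ddx54, a DEAD-box helicase, fell most in Dnmt3-sufficient cells, by -3.76 ± 0.84 and -3.59 ± 0.65, and by -4.29 ± 0.84 and -3.41 ± 0.65 in Dnmt3-deficient cells. The 20 Myc targets outside the nucleolus had 2 that rose and 4 that fell, and 1 and 5, with medians of -0.28 and -0.50 (10% and 5% rose, 20% and 25% fell). Hsp90ab1, a chaperone, fell by -1.64 ± 0.22 and -1.61 ± 0.22 (adjusted p = 4.13e-05 and 4.28e-05), and Ccnd2, a D-type cyclin, rose by 1.79 ± 0.57 and 1.97 ± 0.57 (adjusted p = 0.0313 and 0.016).

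The change from nB to BMPC varied with the summed length of the annotated exons of a gene, which need not be the length of the transcript expressed. The 22 members with summed exons of up to 3000 bases had a median change of -0.22 in Dnmt3-sufficient and -0.74 in Dnmt3-deficient cells, and the 20 longer members -1.28 and -1.88. All tested genes showed the same order, with medians of -0.19 and -0.46 for 5531 shorter genes and of -1.06 and -1.11 for 5991 longer ones. Across the 42 members, Spearman's rho of length with change was -0.59 and -0.48, as a description across genes that share the same libraries. The 5 members that rose in BMPC, which were Nop10 (695 bases), Nhp2 (1004), Npm1 (1659), Nop16 (1734) and Gnl3 (1898), are all among the shorter ones, and Mdn1 (21654 bases) is the longest member. Short members were also the more abundant ones (rho of length with level -0.55). From nB to GCB, rho of length with change was -0.44 in each genotype across the members, and -0.20 and -0.14 over all genes. The median change was 0.57 for shorter and 0.28 for longer members in Dnmt3-sufficient cells, and 0.26 and 0.21 in Dnmt3-deficient cells. Mdn1, Utp20 (8831 bases) and Heatr1 (6931), which fell in Dnmt3-sufficient GCB, are longer. So are Ncl (8257), Nolc1 (3636) and Wdr12 (3376), which rose there. The part of exon length in the BMPC and GCB differences was not tested.

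**Figure D4:**
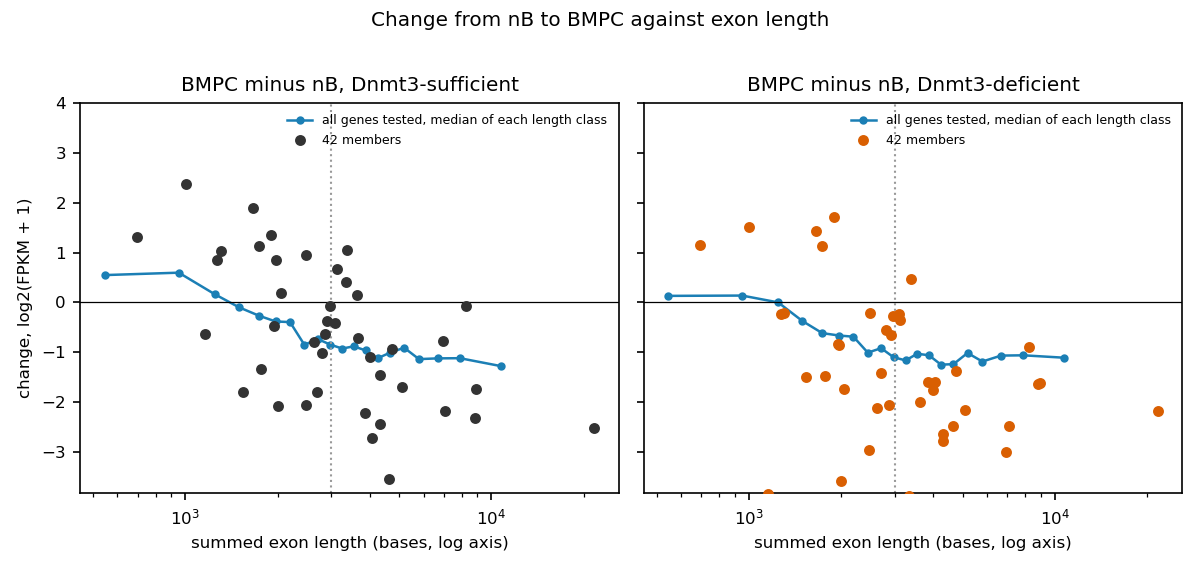
Change from nB to BMPC on the log2(FPKM + 1) scale against summed exon length (bases, log axis) for the 42 members (points), with the median of all tested genes in 20 length classes (blue line), in Dnmt3-sufficient (left) and Dnmt3-deficient cells (right). The dotted line marks 3000 bases, and the median member change was -0.22 and -0.74 to its left and -1.28 and -1.88 to its right.

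Between genotypes, no member passed the threshold in any cell type by limma. The count was 0 of 42 in nB, beside 0.0868% of all genes, 0 in GCB, beside 0.0174%, and 0 in BMPC, beside 0.148%. At an unadjusted p under 0.05 there were 2, 3 and 7 members, and limma-voom on reads recovered from the FPKM values also called 0 in each cell type. In BMPC the count was not 0 under every alternative: 5 members passed with 1 spread for all libraries (Fbl, Wdr43, Wdr75, Heatr1 and Rrs1), 1 without a filter (Wdr75) and 3 without Dnmt3-deficient BMPC replicate 1 (Fbl, Wdr43 and Wdr75). An earlier fit with 1 spread gave as many calls between BMPC genotypes, over all genes, in simulated data that held no difference. That simulation took its levels from nB and a BMPC spread set by hand, so it does not decide on these 5 members. No member passed in the interaction of genotype with cell type either, beside 0.026% of all genes for GCB against nB, 0.104% for BMPC against nB and 0.0694% for BMPC against GCB, with 2, 5 and 6 members at an unadjusted p under 0.05. The share of all genes at an unadjusted p under 0.05 is not given, so these counts cannot be read as an excess of members. Over the 42 members the median genotype difference in nB was 0.02, that in GCB -0.03 and that in BMPC -0.47, beside 0.00, 0.00 and -0.05 over all genes.

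In BMPC, 32 of 42 members had a negative estimate. In 6 of them all Dnmt3-deficient libraries lay below all Dnmt3-sufficient libraries (14.3%, beside 7.31% of all genes), and for no member was it the reverse (3.02% of all genes). These 6 were Npm1, Fbl, Nop10, Wdr75, Heatr1 and Rrs1. They and Wdr43 are described after their values were seen, and none passed the test. Depth in the Dnmt3-deficient BMPC libraries (1632925, 1355231 and 2265945 reads) was below that of 2 of the 3 Dnmt3-sufficient BMPC libraries (2196198, 3803197 and 3629318). Marker sums differed between the genotypes of BMPC with no overlap: erythroid markers were at 1160 to 2194 FPKM in Dnmt3-sufficient and 149 to 797 in Dnmt3-deficient libraries, macrophage markers at 63.5 to 87.7 and 98.4 to 227, and BMPC markers at 19038 to 29689 and 34158 to 51658. Jchain, which joins antibody chains, took 3.40% to 5.38% of reads in Dnmt3-sufficient and 6.26% to 9.80% in Dnmt3-deficient BMPC. After rescaling without the Jchain reads, a step added after the data were seen, the median difference of the members was -0.42. The part of depth and of the other cells in these differences was not tested.

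Wdr75, a small subunit scaffold protein, gave 38.7, 21.6 and 26.5 FPKM in Dnmt3-sufficient BMPC and 4.59, 0.221 and 0 in Dnmt3-deficient BMPC, a difference of -3.94 ± 0.82 (adjusted p = 0.0575). Fbl gave 28.3, 41.5 and 29.2 FPKM in Dnmt3-sufficient and 10.04, 0 and 0.762 in Dnmt3-deficient BMPC (-3.64 ± 0.80, adjusted p = 0.0794). The low genotype was also below nB and GCB for both genes, where values ran from 17.9 to 48.2 FPKM for Wdr75 and from 33.1 to 67.5 for Fbl. Heatr1 gave 3.68, 17.1 and 19.2 FPKM and 1.59, 0.106 and 2.36 (-2.49 ± 0.74, adjusted p = 0.285), and Wdr43 gave 16.1, 39.3 and 35.8 FPKM and 24.1, 0 and 1.57 (-2.87 ± 0.87, adjusted p = 0.307), where the first Dnmt3-deficient library overlapped. Without Dnmt3-deficient BMPC replicate 1, which was the highest of its group for Wdr75, Fbl and Wdr43, these 3 members passed the threshold between genotypes and in both interactions of BMPC.

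Rrs1 gave 4.45, 7.57 and 10.8 FPKM in Dnmt3-sufficient BMPC and 0, 0.360 and 0 in Dnmt3-deficient BMPC, at least 8.68-fold lower with each library set at 3 reads (limma, adjusted p = 0.411). Among the abundant members, the differences were -0.56 ± 0.25 for Npm1 (adjusted p = 0.636), -0.39 ± 0.46 for Nop10 (adjusted p = 0.999) and -0.03 ± 0.50 for Gnl3. Myc differed by -0.93 ± 0.60 (adjusted p = 0.843), with 1 Dnmt3-sufficient library at 18.1 FPKM within the range of the Dnmt3-deficient libraries.

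In GCB, 6 of 42 members (14.3%, beside 5.05% of all genes) had all Dnmt3-deficient libraries below all Dnmt3-sufficient ones and none the reverse (5.58% of all genes). Their differences were small, between -0.47 and -0.19. They were Myc (-0.40 ± 0.20, adjusted p = 0.813), Nhp2 (-0.47 ± 0.17, adjusted p = 0.594), Nop10, Wdr12, Nop2 and Ebna1bp2, named after their values were seen. In nB, 3 members were higher without overlap and 2 lower, 7.14% and 4.76%, beside 4.66% and 4.17% of all genes.

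**Figure D5:**
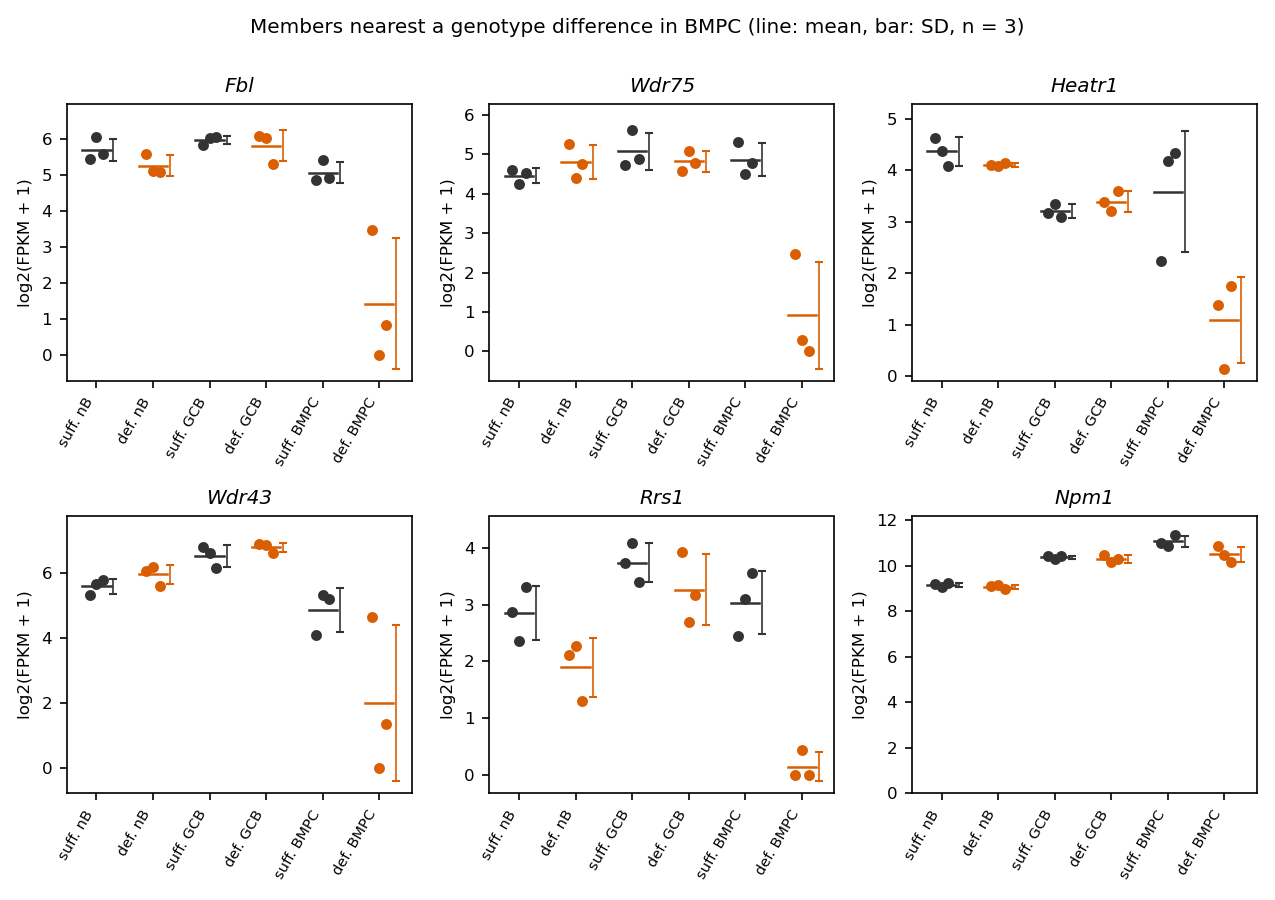
Level of 6 members picked for the genotype comparison in BMPC after their values were seen, not by rank, as log2(FPKM + 1) by library. Points are libraries, lines the mean and bars the SD (n = 3), in Dnmt3-sufficient (suff., black) and Dnmt3-deficient (def., orange) cells. Fbl, Wdr75 and Rrs1 were at or near 0 in 2 or more Dnmt3-deficient BMPC libraries, Npm1 differed by -0.56, and none of the 6 passed the threshold.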

How the data were processed

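RNA of 18 sorted cell samples was amplified with SMART chemistry and sequenced as Nextera libraries. The authors mapped reads to mm9 with TopHat and counted them on the exons of UCSC known genes. FPKM values were deposited, computed by the authors from these counts, the summed exon length and all reads on listed genes, and the deposited exon lengths were used as given. No source says whether the counting read the strand, which leaves genes that overlap or lie antisense uncertain. The submitters' processing notes name Picard, R 3.2.2 and edgeR 3.12.1. Columns of the authors' own comparisons (log2 fold changes, p-values and false discovery rates) were not used. Most immunoglobulin genes are not in the table used, and their reads are not in the FPKM denominator. Member coordinates are from the GENCODE annotation of mm9.

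FPKM times exon length gave whole reads for 100% of values (within 0.01 reads), which gave the depth of each library. Reads amplified without molecular identifiers are not independent molecules. The test was limma 3.58.1 (R 4.3.3) on log2(FPKM + 1) over the 18 libraries, two-sided, with a mean for each of the 6 groups, a variance factor for each cell type from arrayWeights and a trend of variance with level. P-values were adjusted by Benjamini-Hochberg over the 11522 genes that reached an FPKM above 1 in 2 or more libraries. The threshold was an adjusted p of at most 0.05 with a change of at least 1 on that scale, which understates changes of low genes. Counts at an unadjusted p under 0.05 have no share of all genes beside them and show no excess. The steps were tested on simulated data. Labels do not say that replicates were bred apart, so p-values measure the spread between these samples.

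The members, gene lists, tests and alternatives were chosen with earlier results of these data known. Values in every library were to be given for Myc and, in each role, for the member with the highest mean level, the one with the largest change from nB to GCB and the one with the largest change from GCB to BMPC in Dnmt3-sufficient cells. Members past the threshold between genotypes and those that moved against the majority were also to be named, with up to 4 genes of each other list by size of change. Other members named in detail were chosen after their values were seen. Promoters are RefSeq sequences of GRCm38.p6. Alternatives were a pseudocount of 0.1, other filters, median of ratios scaling, other spreads and weights, sex as a covariate, only the groups compared, other thresholds, a replicate block in GCB and leaving out each library. Limma-voom on recovered reads and rescaling after removing Jchain reads were added after seeing the data.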

Additional observations from a re-analysis of the deposited data

How the results depend on the processing

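Of 1386 values of members past the threshold under an alternative, 1201 kept their call, 185 lost it and 0 changed direction. The alternatives with no minimum change and with an adjusted p of 0.01 reuse the main fit. The first keeps every call by construction, and neither can change a direction. Both are included in these totals and in the counts of alternatives given for single members. Limma-voom called 10 from GCB to BMPC and 11 from nB to BMPC in Dnmt3-deficient cells and 4 from GCB to BMPC in Dnmt3-sufficient cells. A fit to only the groups compared called 12 and 11 in Dnmt3-deficient cells for the same comparisons. An adjusted p of 0.01 left 5 (GCB to BMPC) and 3 (nB to BMPC) in Dnmt3-sufficient cells and 12 (nB to BMPC) in Dnmt3-deficient cells. With 1 spread for all libraries, 5 passed from nB to GCB in Dnmt3-sufficient cells, 5 between genotypes in BMPC (Fbl, Wdr43, Wdr75, Heatr1 and Rrs1) and 1 (Wdr75) in either BMPC interaction. In simulated data without a genotype difference, that setting gave as many calls between BMPC genotypes. These calls were counted over all genes and do not decide on the members named. Without a filter, 1 (Wdr75) passed between genotypes in BMPC and in the interaction with nB. Leaving out 1 library gave 3 to 10 members from GCB to BMPC and 5 to 13 from nB to BMPC in Dnmt3-sufficient cells (3 and 5 without Dnmt3-sufficient BMPC replicate 1, 5 and 6 without replicate 3), 16 to 20 and 13 to 19 in Dnmt3-deficient cells, 9 to 10 and 5 to 7 from nB to GCB, and 0 to 3 between genotypes in BMPC and in its interactions. The median change from GCB to BMPC in Dnmt3-deficient cells moved to -2.36 with a pseudocount of 0.1 and to -2.47 with voom. Myc turned sign, always within its error, in Dnmt3-deficient cells under median of ratios scaling (0.00859 from GCB to BMPC, 0.0418 from nB to BMPC), without Dnmt3-deficient GCB replicate 2 (-0.0323 from nB to GCB, with a range of -0.0323 to 0.186 over libraries left out) and, in Dnmt3-sufficient cells, without BMPC replicate 3 (-0.0301 from GCB to BMPC, range -0.0301 to 0.755). Median of ratios scaling also moved the median of all genes from GCB to BMPC from -0.73 to -0.54 in Dnmt3-deficient cells, and that of the members from -1.58 to -1.30. With the replicate block in GCB, 0 members passed between genotypes, as without it. The deviations of same-numbered libraries correlated at -8.06e-05, -0.0171 and 0.0257. No shared deviation was thus seen, which cannot tell whether the samples were paired. Tests by edgeR and DESeq2 were not run, since the values are FPKM. The shallow BMPC libraries limit what could be detected there.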

Other observations

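The partners and rivals of Myc were described in 10 tested genes of the Max network (11 listed). From nB to GCB 1 rose and 4 fell in Dnmt3-sufficient cells, and 1 rose and 2 fell in Dnmt3-deficient cells. Of all genes tested, 12.1% rose and 16.6% fell in Dnmt3-sufficient cells, and 10.7% and 14.7% in Dnmt3-deficient cells. Mxd3, a Max partner seen in dividing cells, rose by 5.57 ± 0.31 and 4.81 ± 0.31 on the log2(FPKM + 1) scale (limma, adjusted p = 1.82e-10 and 1.39e-09). Mlxip, a glucose-sensing member of the wider network, fell by -1.68 ± 0.34 and -1.86 ± 0.34 (adjusted p = 0.000743 and 0.000298). Mxd4 and Mxd1, repressors that pair with Max, fell by -2.01 ± 0.54 and -1.77 ± 0.47 in Dnmt3-sufficient cells (adjusted p = 0.00732 and 0.00667), beside differences of 0.42 ± 0.54 and -0.90 ± 0.47 in Dnmt3-deficient cells (adjusted p = 0.596 and 0.159). Max itself, named after its values were seen, had differences of -0.05 ± 0.36 and -0.72 ± 0.36 (adjusted p = 0.942 and 0.134). No interaction of genotype with this comparison passed by limma (0 of 10, with 1 at an unadjusted p under 0.05).

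From GCB to BMPC, Mxd3 fell by -5.48 ± 0.59 and -4.02 ± 0.59 (adjusted p = 3.09e-06 and 7.61e-05). Mxi1, a repressor that pairs with Max, rose by 2.99 ± 0.56 in Dnmt3-deficient cells (adjusted p = 0.000777) and had a difference of -0.63 ± 0.56 in Dnmt3-sufficient cells (adjusted p = 0.471). Between genotypes, none of the 10 passed in any cell type by limma, with 1, 2 and 1 at an unadjusted p under 0.05 in nB, GCB and BMPC.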
